A study of Rattus norvegicus with 15 samples.

Results

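Guanylyl cyclase D neurons are a small set of sensory neurons of the main olfactory epithelium. Most olfactory neurons signal through an odorant receptor, a G protein and cyclic AMP. Guanylyl cyclase D neurons carry instead a receptor-type guanylyl cyclase in their cilia and signal through cyclic GMP, which opens a cyclic nucleotide-gated channel and is broken down by a phosphodiesterase. They are known to respond to the peptides guanylin and uroguanylin and, through a carbonic anhydrase, to carbon dioxide, and their axons end in the necklace glomeruli of the olfactory bulb.

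The 4 genes that define this cascade were examined: Gucy2d (guanylyl cyclase D itself), Pde2a (the phosphodiesterase that breaks down cyclic GMP), Cnga3 (the channel subunit) and Car2 (carbonic anhydrase II). Members were chosen by gene name, over all probes other than controls. Of the 35561 distinct gene names on the array, 3 were members, each with 1 probe. No probe is named Car2 on the array. The gene is printed there under its older name Ca2, and its probe was added through its accession, which the RefSeq gene table for assembly GRCr8 lists as Car2. This made 4 genes and 4 probes.

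The rats were Brown Norway, 6 weeks old and without any treatment given in the labels, 4 males (rats 1, 2, 5 and 6) and 4 females (rats 3, 4, 7 and 8). RNA of the whole olfactory epithelium of 1 nostril was hybridized to each array. There were 15 arrays on 4 slides, since both nostrils (A and B) were available from 7 rats and only nostril A from male 1. Left and right are not told apart in the labels.

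Processed intensities are in scanner units after background subtraction. A level is the log2 of the intensity over the median of its array, so that 0 is the array median. Array medians ranged from 57.4 to 83.4 units. The lowest intensity that the scanner software called well above background was between 10.01 and 14.49 units, depending on the array. A probe was called expressed when it was well above background on at least 11 of the 15 arrays. The tissue carried its defining markers, since Omp, Adcy3 and Cnga2 were well above background on 15 of 15 arrays. The arrays of males 1 and 2 shared slide 1 with 1 female array, that of nostril A of female 3. The other nostril of female 3 was on slide 2 together with female 4. Males 5 and 6 were on slide 3, females 7 and 8 on slide 4, so that slide 1 alone carried both sexes.

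The 60-base probes of Gucy2d, Pde2a and Cnga3 are shown because all that follows rests on 1 probe per gene. Each of these sequences has at least 1 reading frame without a stop codon. They are in lower case, 5′ to 3′, on the plus strand of build rn3, as the array files place them. The files do not give exons or untranslated regions. The Gucy2d probe lies at chr1:155816062-155816121, the Pde2a probe at chr1:159091175-159091234 and the Cnga3 probe at chr9:36203350-36203409.
Gucy2d: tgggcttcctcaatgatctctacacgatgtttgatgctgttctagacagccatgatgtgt
Pde2a: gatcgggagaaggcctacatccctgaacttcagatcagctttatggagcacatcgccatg
Cnga3: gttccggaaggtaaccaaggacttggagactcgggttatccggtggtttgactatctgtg

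The Gucy2d and Pde2a probes lie 3.28 Mb apart on chromosome 1. The Ca2 probe lies at chr2:88022701-88022760 on the minus strand. It has a stop codon in each of the 3 frames of the probe as written in the files, and is not printed.

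The names of the guanylyl cyclases have changed since the array was designed. The gene that the array calls Gucy2d is guanylyl cyclase D, listed today as Gucy2e with the synonym GC-D. The gene that the array calls Gucy2e is the retinal cyclase RETGC-1, listed today as Gucy2d. Array names are used throughout. The Gucy2d probe was aligned without gaps to the probes of 10 other guanylyl cyclase genes. The nearest was Gucy2g, another receptor-type cyclase, where 34 of 51 overlapping bases matched (66.7%). For the other cyclase probes the best overlap matched at 34.9% to 46.2% of bases. Only probes were compared with each other, so binding of the Gucy2d probe to other cyclase transcripts was not tested. The overlapping stretches of Gucy2d and Gucy2g are shown with their 17 differing bases in capitals.
Gucy2d: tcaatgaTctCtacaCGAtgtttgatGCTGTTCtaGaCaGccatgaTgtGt
Gucy2g: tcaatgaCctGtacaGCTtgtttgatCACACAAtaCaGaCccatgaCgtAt

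Of the 4 member probes, 3 were expressed, against 65.1% of the 41012 probes of the array. Pde2a and Car2 were well above background on 15 arrays, Gucy2d on 13 and Cnga3 on 0. The plot of levels by rat shows the 15 values of each gene. In RNA from whole epithelium, fewer cells of a type and less RNA per cell cannot be told apart.

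**Figure D1:**
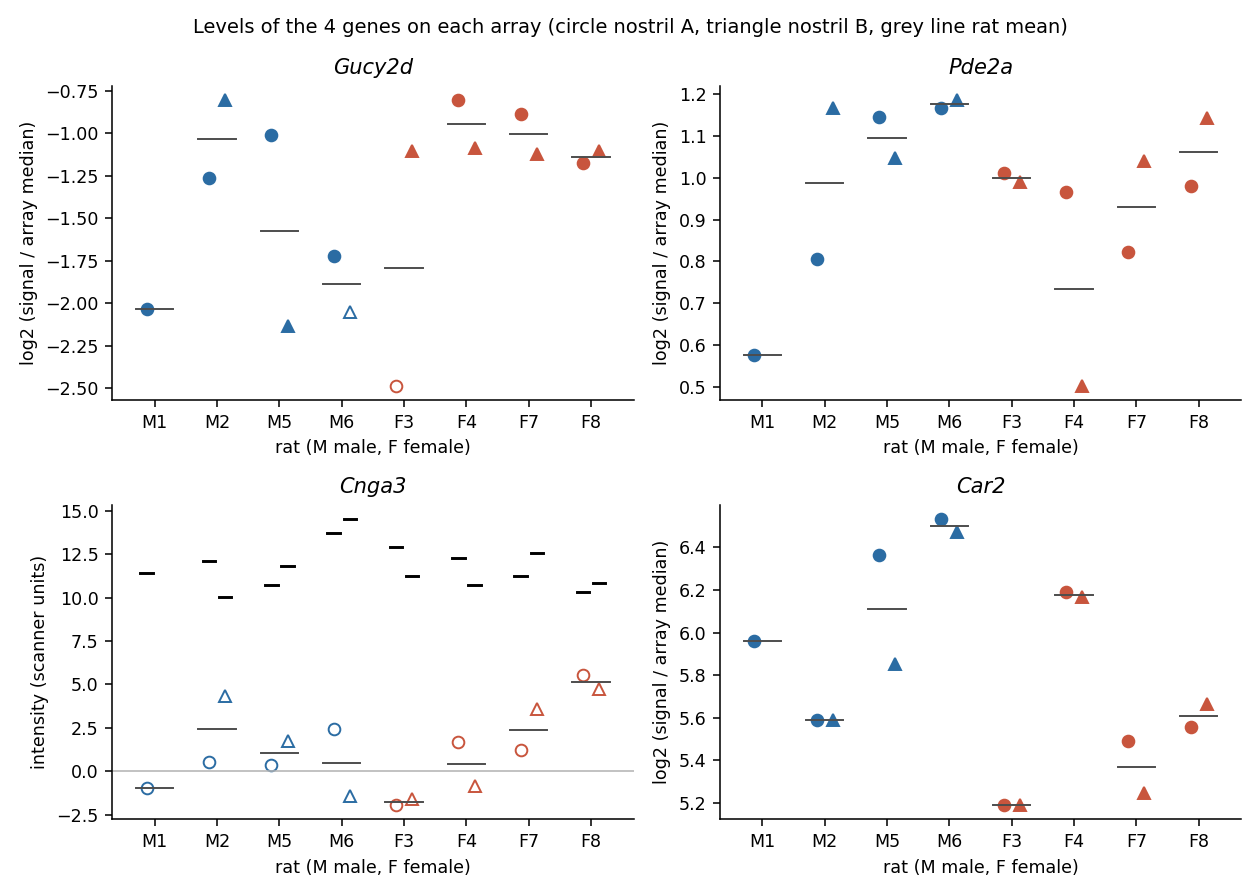
Level of each gene on the 15 arrays, by rat: log2 of the signal over the array median for Gucy2d, Pde2a and Car2, and intensity in scanner units for Cnga3. Blue is male, red female, circles are nostril A, triangles nostril B, open symbols are not well above background, grey lines are rat means, and black bars in the Cnga3 panel are the lowest intensity called well above background on that array. Every Cnga3 value lies under its bar, and no gene separates males from females.

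Gucy2d, the guanylyl cyclase, gave a dim signal. In males the intensity was 16.6 units in the single nostril of male 1, 29.4 and 40.6 in nostrils A and B of male 2, 28.5 and 13.96 in male 5, and 17.8 and 14.7 in male 6. In females it was 12.3 and 35.5 in nostrils A and B of female 3, 47.3 and 39.2 in female 4, 35.1 and 32.0 in female 7, and 32.8 and 33.3 in female 8. The arrays that were not well above background were nostril A of female 3 and nostril B of male 6. All 15 arrays were above 0 by more than 2 times the error that the scanner software gives for each intensity, an error that covered 11.2% to 24.3% of the signal. The ranges of the sexes overlapped.

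Rat means of the Gucy2d level rose from -2.04 in male 1 through -1.89 in male 6, -1.79 in female 3, -1.57 in male 5, -1.14 in female 8, -1.03 in male 2 and -1.01 in female 7 to -0.95 in female 4. The highest and lowest rats differed 2.12-fold. None of the 7 steps between neighbours in this order was larger than the SD between nostrils of 1 rat, which was 0.51 on the log2 scale. Without female 3, whose nostrils differed most, the SD was 0.38 over 6 rats, and 1 step, of 0.43 from male 5 to female 8, exceeded it. The SD over all 7 rats lay at the 96.7th percentile of all probes tested, where the median was 0.12.

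The nostrils differed most in Gucy2d in 2 rats. Over the array median, nostril A of female 3 gave 0.178, which was not well above background, and nostril B 0.465, a difference of 4.08 times the combined scanner error. In male 5 nostril A gave 0.497 and nostril B 0.227, a 2.19-fold difference in the opposite direction and 3.46 times the combined error. In the other 5 rats the nostrils differed by 0.283 to 1.84 times that error. The nostrils of female 3 were hybridized on different slides and those of male 5 on the same slide. Each spot was printed once, so that the error between spots of this probe was not measured.

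**Figure D2:**
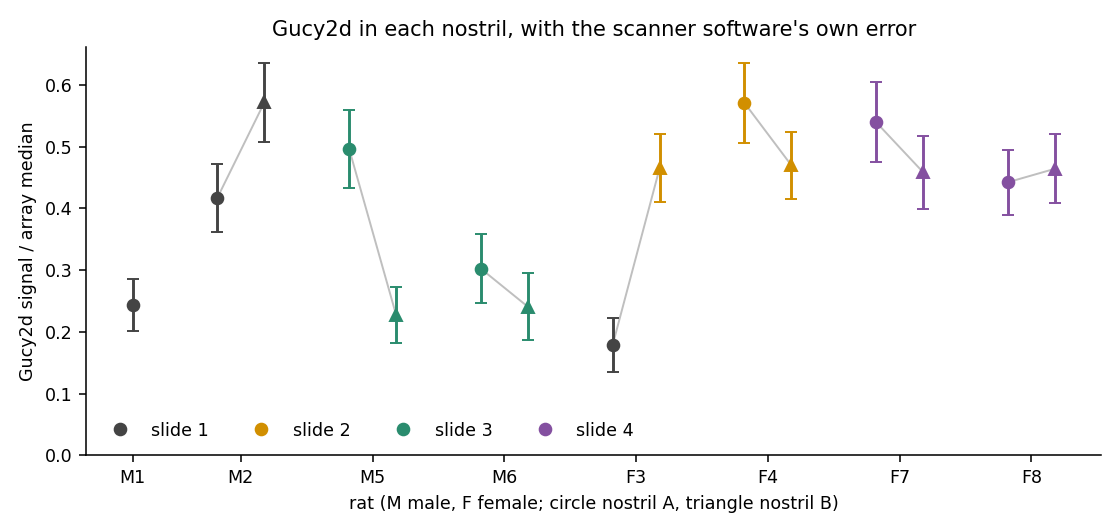
Gucy2d signal over the array median in each nostril, with bars for the error that the scanner software gives; circles are nostril A, triangles nostril B, and colors are slides. The nostrils of female 3 (0.178 and 0.465) and of male 5 (0.497 and 0.227) stand apart by more than their bars.

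Pde2a, the phosphodiesterase, was measured well within range. The intensity was 102 units in male 1, 124 and 159 in nostrils A and B of male 2, 127 and 127 in male 5, and 132 and 139 in male 6. It was 139 and 151 in female 3, 162 and 118 in female 4, 115 and 144 in female 7, and 146 and 158 in female 8. The ranges of the sexes overlapped almost completely. The level was 0.96 ± 0.27 in males and 0.93 ± 0.14 in females (log2, SD, n = 4 rats each). Rats differed by at most 1.52-fold, with male 1 lowest at 0.58 and male 6 highest at 1.18. Only 1 of the 7 steps between neighbouring rats was larger than the SD between nostrils of 0.17. That step separated female 4 (0.73) from female 7 (0.93). Without female 4, whose nostrils differed most, the SD was 0.13 and 2 steps exceeded it.

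Cnga3, the channel subunit of these neurons, was well above background on 0 of 15 arrays. Its intensity ran from -1.93 to 5.55 units with a median of 1.21, and it was within 2 scanner errors of 0 on 14 of 15 arrays. The exception was nostril A of female 8, at 5.55 ± 2.50 units (scanner error). The software called the signal positive and significant, a weaker call, on 4 arrays, nostril B of male 2 and of female 7 and both nostrils of female 8. Cnga3 did not reach the 7 arrays well above background that a probe needed to be tested, and without that filter all of its values lay at the floor of 0.1 of the array median and gave no difference. A signal under 10.01 to 14.49 units, depending on the array, did not reach the call well above background.

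Car2, the carbonic anhydrase, was bright. The intensity was 4245 units in male 1, 3395 and 3413 in nostrils A and B of male 2, 4731 and 3555 in male 5, and 5429 and 5430 in male 6. It was 2523 and 2782 in female 3, 6038 and 5992 in female 4, 2920 and 2654 in female 7, and 3488 and 3635 in female 8. Female 4 lay with the high males and male 2 with the low females, so the sexes overlapped.

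The Car2 level ran from 5.19 in female 3 through 5.37 in female 7, 5.59 in male 2, 5.61 in female 8, 5.96 in male 1, 6.11 in male 5 and 6.18 in female 4 to 6.50 in male 6. The extremes differed 2.48-fold, and that range lay at the 95.05th percentile of all probes tested. The SD between nostrils of 1 rat was 0.15, at the 64.4th percentile of all probes tested, and the nostril levels of male 2 and of female 3 were equal to within 0.01. The nostrils differed most in male 5 (B minus A -0.51) and next in female 7 (-0.24). Of the 7 steps between neighbouring rats, 4 exceeded the nostril SD. The neighbours that did not differ beyond it were male 2 and female 8, male 1 and male 5, and male 5 and female 4. Without male 5 the nostril SD was 0.08 and 5 steps exceeded it, that from male 1 to male 5 included. These SDs without 1 rat were computed after the values were seen.

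The design first allows the sexes to be compared, with the nostrils of each rat averaged (limma, 27625 probes, false discovery rate 1%). None of the 3 members tested passed, against 0.0434% of all probes (0.0326% higher in females). At an unadjusted p under 0.05 the count of members was also 0, against 17.1% of all probes. Gucy2d was -1.63 ± 0.44 in males and -1.22 ± 0.39 in females (SD, n = 4 each), a difference of 0.41 (SE 0.25, 95% interval -0.16 to 0.98, limma adjusted p = 0.435). The Pde2a difference, female minus male, was -0.03 (95% interval -0.33 to 0.28, limma adjusted p = 0.940). Car2 was 6.04 ± 0.38 in males and 5.59 ± 0.43 in females, a difference of -0.45 (SE 0.23, 95% interval -0.97 to 0.07, limma adjusted p = 0.350). The intervals reach 0.98 for Gucy2d and -0.97 for Car2, so the p-values do not show that the sexes were alike.

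The Gucy2d difference could not be settled within slides, since slide 1 held both sexes with 1 female array, nostril A of female 3, where Gucy2d was not well above background. Its measured level of -2.49 lay below the mean of the 3 male arrays of that slide (-1.37). The fit with slide as a fixed block rests largely on this array. With slide as a fixed block the difference between the sexes was -1.04 (limma adjusted p = 0.225), and with slide as a random block it was -0.13 (adjusted p = 0.883). Without nostril A of female 3, an alternative chosen after its low value was seen, the difference was 0.58 (adjusted p = 0.173). Leaving out 1 rat at a time gave 0.28 (without male 1) to 0.61 (without male 2), and normexp with quantile normalization gave 0.14 (adjusted p = 0.365). The Car2 difference stayed negative, at -0.65 without female 4 to -0.30 without male 6. Slide means of the Gucy2d level were -1.65 and -1.73 on slides 1 and 3 and -1.001 and -1.07 on slides 2 and 4. Slides 2, 3 and 4 each held 1 sex, so that on them slide and sex cannot be told apart. Within slide 1 the female array was 0.16 higher for Pde2a and 0.52 lower for Car2.

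**Figure D3:**
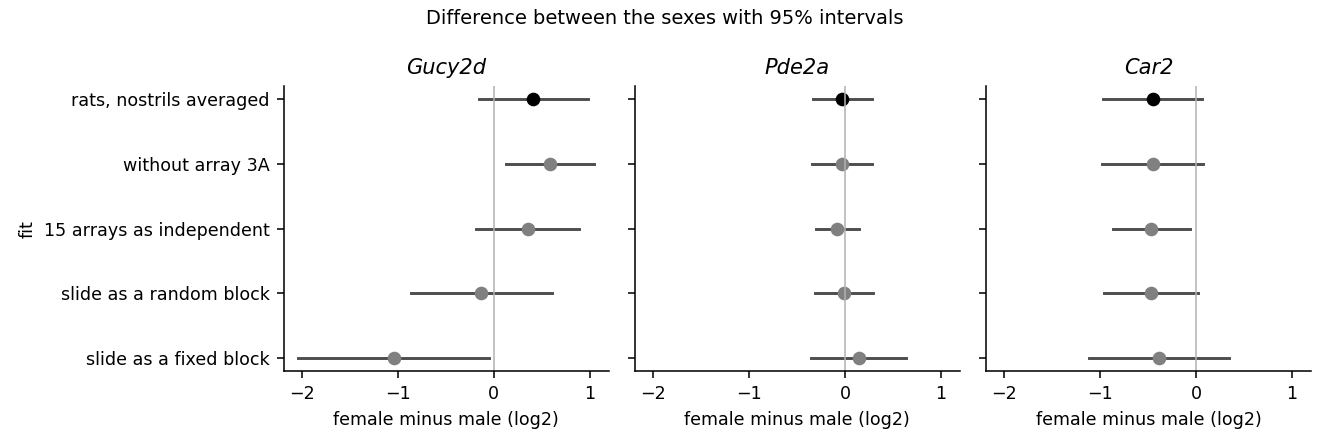
Difference between females and males on the log2 scale for 3 genes, with 95% intervals, for the fit over rats (black) and for other fits (grey). The Gucy2d difference is 0.41 over rats and -1.04 with slide as a fixed block, a value that rests largely on 1 female array not well above background, and the Car2 difference lies between -0.39 and -0.47 in the fits drawn.

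Nostrils were compared within rats (limma with rat as a block, 14 arrays, 27574 probes). No member passed, and 0% of all probes did. At an unadjusted p under 0.05 no member passed either, against 5.89% of all probes. The differences, B minus A, were -0.01 for Gucy2d (95% interval -0.56 to 0.54), 0.03 for Pde2a (-0.18 to 0.23) and -0.10 for Car2 (-0.26 to 0.05). Nostril B was higher in 3 of 7 rats for Gucy2d, in 4 for Pde2a and in 2 for Car2. The nostril difference did not pass a test of its dependence on sex for any member (limma, adjusted p = 0.9996 for each of the 3).

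Rats of 1 sex were then compared with each other, with the difference between nostrils as the error (limma F-statistic). Car2 alone passed among the 3 members, where 2.79% of all probes did. It was also the only member with an unadjusted p under 0.05, against 37.1% of all probes. Its F was 17.9 (adjusted p = 0.00482), against 2.45 for Pde2a (adjusted p = 0.204) and 1.64 for Gucy2d (adjusted p = 0.347). The fit with slide as a fixed block compared only rat 2 with 1, 4 with 3, 6 with 5 and 8 with 7. Differences across these pairs were not tested in it. Car2 did not pass that fit (F = 11.98, adjusted p = 0.140), where 0.00363% of probes passed. The Car2 call also fell short of 1% when any of rats 2, 4, 6 or 8 was left out (adjusted p from 0.0136 to 0.0249). The number of probes passing was 386, 389, 646 and 186 without rats 2, 4, 6 and 8 and 768 with all rats. Car2 still passed without rats 5 and 7, where 438 and 245 probes did, and its F without rat 8 was 19.8. Without female 4 the F was 10.4, and without male 5, the rat whose nostrils differed most in Car2, it was 61.6 (adjusted p = 6.17e-04).

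Carbonic anhydrase II is also an abundant enzyme of red blood cells, and red-cell transcripts varied strongly between these rats. Of 5 red-cell marker probes from 4 genes, 4 were expressed and 3 passed the comparison of rats of 1 sex. They were Alas2, the first enzyme of haem synthesis in red cells (F = 38.0, adjusted p = 7.92e-04), Hbb, beta-globin (F = 27.6, adjusted p = 0.00181), and Epb4.2, a protein of the red-cell membrane skeleton (F = 18.5, adjusted p = 0.00446). None of the 3 passed with slide as a fixed block, over the pairs of rats given above. In that fit 0.00363% of all probes passed. The F there was 23.3 for Alas2 (adjusted p = 0.0529), 17.4 for Hbb (adjusted p = 0.0779) and 13.2 for Epb4.2 (adjusted p = 0.124). Alas2 was at 5.08 in female 7, 5.30 in female 3, 6.27 in male 2 and 6.37 in female 8. It was at 8.51 in male 1, 8.76 in female 4, 8.80 in male 5 and 9.69 in male 6.

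The gap of 2.13 between female 8 and male 1 left 4 rats on each side, and the widest gap in Hbb and in Epb4.2 split the same rats. In Slc4a1, the anion exchanger of red cells, male 2 lay above the widest gap. Car1, the red-cell carbonic anhydrase I, named after its values were seen, was well above background on 15 arrays and was also low in females 3 (-0.55), 7 (-0.75) and 8 (-0.64). It was at 0.23 in female 4, 0.48 in male 5, 1.12 in male 1 and 1.25 in male 6, and highest in male 2 (1.44), which again lay with the higher rats. Car2 was between 5.19 and 5.61 in the 4 rats with the lower Alas2 and between 5.96 and 6.50 in the 4 with the higher. Because the rats fell into these clusters, no correlation of Car2 with the red-cell genes over all 8 was computed. In nostril B of male 5, Car2 was 0.51, Alas2 0.45 and Hbb 0.31 below nostril A, and in female 7 Car2 was 0.24 and Alas2 1.42 below it. In male 2 Alas2 was 0.55, Slc4a1 1.24 and Epb4.2 1.13 lower in nostril B while the Car2 levels were equal to within 0.01, and in female 4 Alas2 was 0.32 higher and Car2 0.02 lower. Over the 7 rats with both nostrils, the Car2 difference shared its sign with Alas2 in 4 rats and with Car1 in 4. It shared its sign with Hbb, Slc4a1 and Epb4.2 in 3 rats each. All 4 expressed red-cell probes had lower means in females (median difference -2.04), but none passed 1% between the sexes. The part of red-cell RNA in the Car2 values was not tested.

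**Figure D4:**
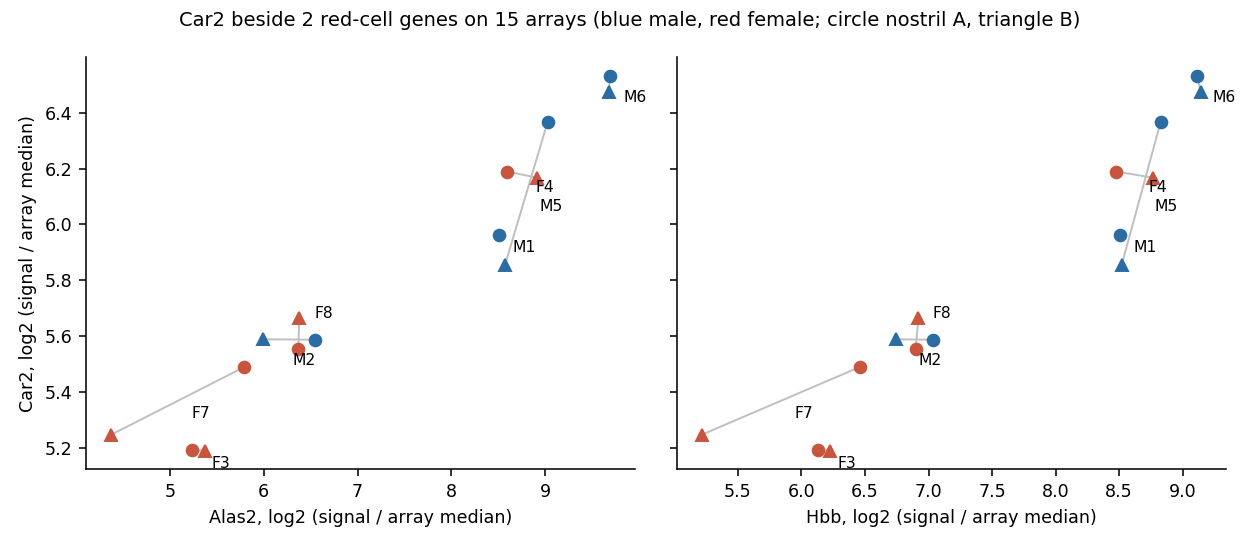
Car2 level against the levels of the red-cell genes Alas2 and Hbb on the 15 arrays (log2 of the signal over the array median); blue is male, red female, circles are nostril A, triangles nostril B, and grey lines join the nostrils of a rat. Rats 2, 3, 7 and 8 lie at the lower left, with Car2 means of 5.19 to 5.61, and rats 1, 4, 5 and 6 at the upper right, with Car2 means of 5.96 to 6.50.

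No pair of members passed a test of varying together from rat to rat. Over the 8 rat means, Pearson r was 0.03 for Gucy2d and Pde2a (Spearman rho -0.26), -0.28 for Gucy2d and Car2 (rho -0.14) and 0.02 for Pde2a and Car2 (rho 0.24). The 2-sided exact permutation p was 0.495 or more for each r and 0.536 or more for each rho, and after Benjamini-Hochberg adjustment over the 3 pairs it was 0.969 for each r and 0.752 for each rho. Without the 2 rats farthest from the median of Pde2a, Pde2a and Car2 gave r = 0.90 over 6 rats (exact permutation p = 0.0125, adjusted 0.0375) but rho = 0.83 did not pass (p = 0.0583, adjusted 0.0875), so the value of this pair rests on which rats enter. The Car2 values here are those of the rats that fell into clusters in the red-cell genes.

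Members were also set against the mean level of 6 other marker lists, which made 18 relations over the 8 rats. The strongest was between Pde2a and the 5 expressed endothelial probes (r = 0.81, exact permutation p = 0.0101, rho = 0.86, p = 0.0107), and it did not pass after adjustment over the 18 (p = 0.181 for r and 0.193 for rho). Without the 2 rats farthest from the median of the endothelial level, r was 0.47, so that it rests on these rats. Male 1 was the lowest rat in both Pde2a and the endothelial level.

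The genes whose rat means were most like those of each member, among 12564 expressed probes with a gene symbol, are given as a description. For Gucy2d they were Nhlrc2 (r = 0.95 over 8 rats), Col9a3 (0.94), a collagen chain of cartilage, and Cfl1 (0.93), the actin-binding protein cofilin, with r of 0.59, 0.81 and 0.69 over the 7 nostril differences. For Pde2a they were Usp11 (0.98), a ubiquitin protease, Mmrn2 (0.96), a matrix protein of blood vessel endothelium, and Gsdmdc1 (0.96), a gasdermin, with 0.42, 0.44 and 0.36 over nostril differences. For Car2 they were Cdc25b (0.99), a phosphatase of the cell cycle, Slc38a5 (0.98), an amino acid transporter, and Cd52 (0.98), a surface antigen of white blood cells, with 0.68, 0.63 and 0.43. The highest of so many r values is large in any set of 8 points, and those of Car2 are over the rats that fell into clusters in the red-cell genes. Levels of Cd52 ran from 1.45 to 6.10 over the rats.

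Other genes tied to this cascade were counted from lists. Among other proteins linked to guanylyl cyclase D neurons (calcium sensors, Ms4a membrane proteins, Emx1 and Epha7), 13 of 20 probes were expressed. None of the 13 passed between the sexes, and the median difference was -0.03 beside 0.01 for all tested probes. Ncald, the calcium sensor neurocalcin delta, was well above background on 15 arrays with both of its probes, at medians of 1158 and 227 units. Epha7, an ephrin receptor, was the only one that passed between rats of 1 sex (F = 31.3, adjusted p = 0.00130), with levels from -1.28 in male 6 to 0.28 in male 1. Epha7 did not pass with slide as a fixed block, over the pairs of rats given above (F = 0.239, adjusted p = 0.945).

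Of the peptide ligands, guanylin (Guca2a) was well above background on 15 arrays, at 139 to 322 units, and just missed the threshold between rats of 1 sex (F = 12.9, adjusted p = 0.0101). Its level was lowest in female 7 (1.17) and highest in female 4 (1.95). Uroguanylin (Guca2b) was well above background on 1 array, with a median of 6.80 units.

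Among other guanylyl cyclases 9 of 12 probes were expressed, with a median sex difference of 0.02, and none passed any comparison. Gucy2c, the intestinal guanylin receptor, was at 233 to 401 units. Npr1 and Npr2, receptors of natriuretic peptides, were at 582 to 1144 and 646 to 1202 units. Gucy2g was dim, at 18.6 to 32.9 units, and its F between rats of 1 sex was 7.60 (adjusted p = 0.0284). It was lowest in female 4 (-2.09), where Gucy2d was highest, and highest in female 7 (-1.20), where Gucy2d was next to highest (-1.01). The retinal cyclases Gucy2e and Gucy2f were well above background on 0 of 15 arrays.

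Other cyclic nucleotide phosphodiesterases had 18 of 25 probes expressed and a median sex difference of 0.11, and none passed any comparison. Pde1c, the phosphodiesterase of canonical olfactory cilia, was at medians of 1181 and 99.4 units with its 2 probes. All 5 probes of the other channel subunits were expressed, none passed any comparison, and their median sex difference was 0.07. Those of the canonical olfactory channel, Cnga2, Cnga4 and Cngb1, were all well above background on 15 arrays, with Cnga2 at 19237 to 34502 units. Of the other carbonic anhydrases 9 of 12 probes were expressed and none passed, with a median sex difference of 0.03. No probe of the cyclic GMP-dependent kinases was expressed, and the single one that was tested did not pass.

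Markers of other cells were counted in the same way. None of the 11 tested probes of canonical olfactory neurons, 5 of immature neurons, 4 of sustentacular cells, 5 of endothelium, 5 of osteoclasts or 5 of glia passed a comparison. The 4 sustentacular probes were all higher in females, by a median of 0.37. The 5 endothelial and 5 glial probes were all lower in females (median differences -0.24 and -0.17). Of the 5 osteoclast probes 1 was higher in females (median difference -0.24). From the vomeronasal list, 2 of the 4 tested probes passed between rats of 1 sex, Trpc2 (F = 25.2, adjusted p = 0.00225) and Gnao (F = 19.7, adjusted p = 0.00380). Neither passed with slide as a fixed block, over the pairs of rats given above, where 0.00363% of all probes passed. In that fit the F was 44.4 for Trpc2 (adjusted p = 0.0185) and 1.94 for Gnao (adjusted p = 0.467). Trpc2, the channel of vomeronasal neurons, ran from 0.21 in male 2 to 2.37 in male 1, the rat with the lowest Gucy2d and Pde2a. Gnao, the G protein subunit of a class of vomeronasal neurons, ran from 3.53 in male 6 to 4.08 in female 4, the rat with the highest Gucy2d. The part of vomeronasal tissue in the member values was not tested.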

How the data were processed

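Arrays of 1 color (Cy3) were read from the scanner files. The authors extracted each intensity with Agilent Feature Extraction (version 9.5 per the file headers), which had subtracted background and corrected spatial trends. The authors also deposited a ratio table (signal over its array median and probe median: 99.992% of 20358 bright probes came within 2% of that calculation), used as an alternative. Here, outlier spots (61 to 175 per array) were left out, spots of a probe averaged, and log2 of the deposited intensity over the array median computed, with a floor of 0.1 of that median (-3.32). Probes well above background on at least 7 arrays were tested with limma 3.58.1 in R 4.3.3, with Benjamini-Hochberg adjustment over all of them at 1%, after the fits were tested on simulated data. Correlations used exact permutation (scipy). Probes of the 4 genes were all named, other list genes where they passed 1% or were of the named cyclases, ligands, channels and markers. Members and lists were chosen with earlier results of these data known. Alternatives covered scaling (75th percentile, normexp with quantile normalization), floor, filter, slide, left-out rats and the methods' t-test. The number of animals limits the precision. Suppliers of the rats were not analysed here.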

Additional observations from a re-analysis of the deposited data

Results flagged for a closer look

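Among 15 groups of samples examined, 1 held a sample far from the others. Nostril A of female 3 was lowest in Gucy2d among the 8 female arrays, at -2.49, and its gap to the next array was 0.781 of the whole range. The rule marks about 1 in 20 groups of independent samples by chance, and the 8 arrays are the nostrils of 4 rats. That array lay on slide 1 and was the only female array there.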

How the results depend on the processing

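No member passed 1% between the sexes under any of 19 alternatives or between nostrils under any of 14, including the methods' t-test on 15 arrays. The count between rats of 1 sex (1, Car2) fell to 0 without a filter (F = 14.7, adjusted p = 0.0202) and with the deposited ratios (F = 16.3, adjusted p = 0.0114). It was also 0 with slide as a fixed block, a fit that compared only the pairs of rats given above. The count ranged from 0 to 1 when 1 rat was left out (Car2 F from 10.4 to 61.6 over all alternatives). The cause was not tested. Expressed members numbered 2 when all 15 arrays were required and 3 with the weaker detection call. Pairs past 0.05 numbered 1 without the 2 farthest rats and 0 with the 75th percentile or nostril differences.

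Signs turned for values that passed no test after adjustment. The Gucy2d sex difference was -1.04 and -0.13 with slide as a fixed and a random block (the first resting largely on 1 female array), and the Pde2a difference was 0.14 with the fixed block and -0.155 to 0.0453 over left-out rats (positive without rats 4, 5 or 6). The Gucy2d nostril difference was 0.0113 after normexp and -0.24 to 0.18 over left-out rats, and that of Pde2a -0.0303 to 0.107. Without the 2 farthest rats r was -0.55 for Gucy2d and Pde2a and 0.25 for Gucy2d and Car2, and the latter was 0.68 over nostril differences. The sexes share no replicate numbers and could not be paired. Nostrils were paired by rat, and the count of members was also 0 without the rat block. Low signal over background limits what can be said of Gucy2d and Cnga3.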
